A study of Rattus norvegicus with 9 samples.

Results

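The interleukin-1 ligands and receptors are described here as 10 genes: the ligands Il1a, Il1b, Il18 and Il33, the receptor antagonist Il1rn, the receptors Il1r1, Il1r2, Il1rap and Il1rl1, and Casp1, the protease that matures Il1b and Il18. They were chosen by name and comprise every probe set that the array annotation assigns to 1 of these symbols, 16 of 31042 probe sets and 10 of 14217 measured genes. RNA was measured on Affymetrix arrays in 3 bladder transitional cell carcinomas of female SD rats, in 3 adjacent normal tissues of the same tumor-bearing rats and in 3 bladders of separate normal SD rats. All 9 samples carry an age of 10 weeks. The tumor-bearing rats had received 20 mg/ml MNU (N-methyl-N-nitrosourea, an alkylating carcinogen) in the bladder once a week for 10 weeks. The labels of the normal samples carry this MNU text too, whereas the series design calls them tissue of normal rats. Adjacent tissue therefore came from bladders exposed to MNU, and neither tissue was sorted by cell type.

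Interleukin-1 alpha and beta are inflammatory cytokines that signal through the receptor Il1r1 together with its accessory chain Il1rap. The antagonist Il1rn occupies Il1r1 without a signal, and Il1r2 binds the cytokines as a decoy. Il1b and Il18 are made as inactive precursors that Casp1 cuts, whereas Il1a and Il33 also reside in the nucleus and act as alarm signals when cells are damaged. Il33 is the ligand of Il1rl1 (ST2), which pairs with Il1rap as well.

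Expression is given as the MAS 5.0 signal of a probe set on a log2 scale, on which 1 unit is a 2-fold difference. Between 30.4% and 36.1% of probe sets on an array lay under a signal of 50 (a log2 signal of 5.64), which was taken as dim, and array medians were 6.87 to 7.23. Summed on the linear scale, 8 smooth muscle markers stood at 75.6%, 2.58% and 3.07% of the normal mean in tumors 1, 2 and 3, against 98.4% to 103% in normal bladder, so that tumor 1 stood apart from the other tumors. The keratins Krt5 and Krt14, which mark the basal epithelium, lay above 8 on every array. They were 3.58 and 4.81 log2 units higher in tumors than in normal bladder, and 3.72 and 4.65 higher in adjacent tissue. Each pair of groups was tested with limma over all probe sets, with Benjamini-Hochberg adjustment and a threshold of 0.05. The 3 arrays per group limit the precision, and p-values measure the spread between these samples. In whole tissue, fewer cells of a type and less RNA per cell cannot be told apart.

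Against normal bladder, Il1a, Il1b and the decoy receptor Il1r2 rose in both the tumors and the adjacent tissues, and Il33 fell in both, while Casp1 rose in adjacent tissue. Of the 10 genes, 3 rose and 1 fell in tumors, where 13.6% of all genes rose and 9.95% fell. In adjacent tissue 4 rose and 1 fell, where 13.3% of all genes rose and 11.5% fell. The groups did not overlap for 6 of the 10 genes in tumors (45.8% of all genes) and for 7 of the 10 in adjacent tissue (46.7% of all genes). The median log2 fold change of the 10 genes was 0.75 in tumors and 1.02 in adjacent tissue, and that of all genes 0.05 and 0.01. Both comparisons use the same 3 normal arrays. Without tumor 1, the tumor comparison called 5 genes higher and 2 lower. Calls over all 31042 probe sets rose there from 5574 to 9216.

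**Figure D1:**
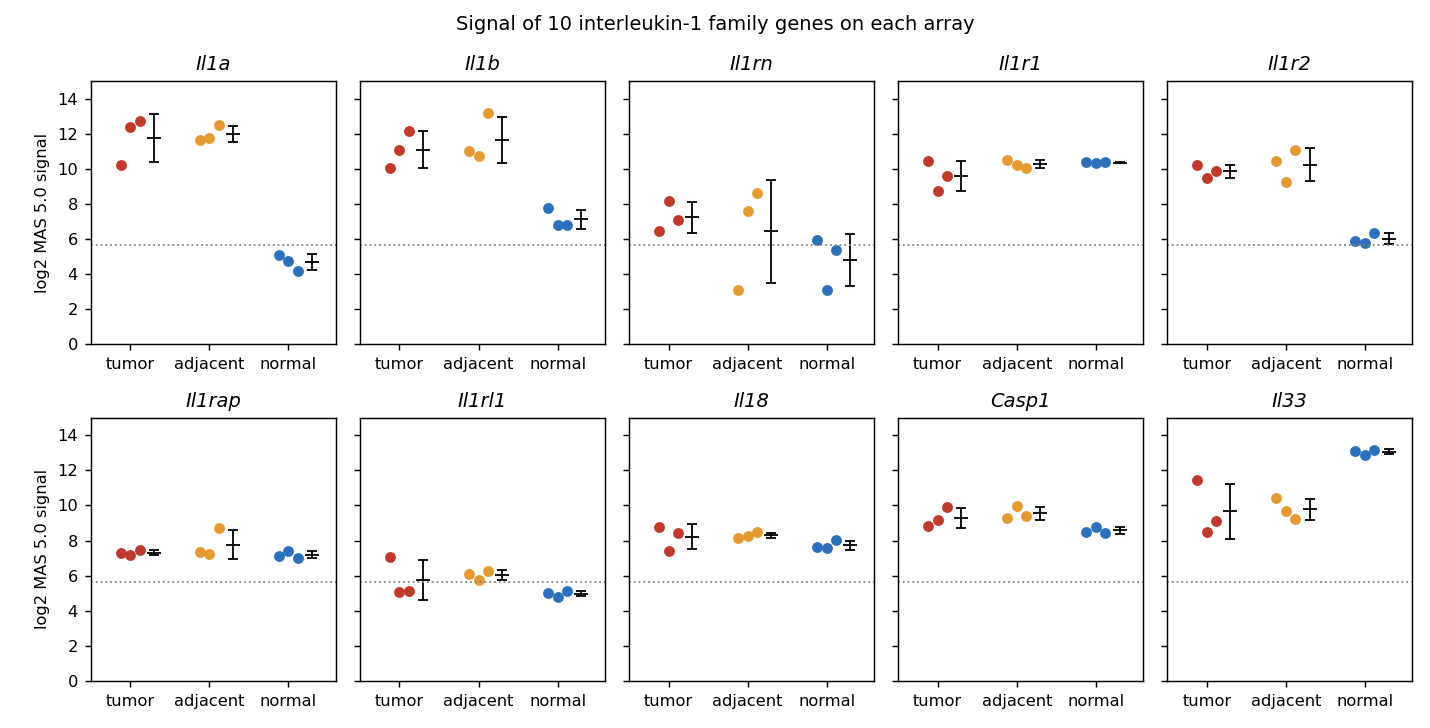
Log2 MAS 5.0 signal of the brightest probe set of each of the 10 genes (points, 1 per array, replicates 1 to 3 from left to right) in tumor, adjacent and normal samples, with the mean and SD of the 3 arrays in black and the dim limit of 5.64 as a dotted line. Il1a, Il1b and Il1r2 lie higher and Il33 lower on all tumor and adjacent arrays than on all normal arrays.

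Il1a, which keratinocytes and other epithelial cells store, had the largest change of the 10 genes. Its brighter probe set gave log2 signals of 10.20, 12.39 and 12.72 in tumors and 11.63, 11.78 and 12.49 in adjacent tissues, against 5.06, 4.76 and 4.18 in normal bladders. Every normal array was dim and every array of the MNU rats was bright, with tumor 1 the lowest of these. With the dim limit of 50 taken as the normal level, Il1a was at least 69.8-fold higher in tumors than in normal bladder (log2 fold change 7.10, SE 0.63, adjusted p = 0.00231 from limma). In adjacent tissue it was at least 80.0-fold higher (7.30, SE 0.31, adjusted p = 1.5e-04). Both calls held without each array in turn.

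The other Il1a probe set was dimmer, at 6.98, 9.54 and 10.01 in tumors and 7.13, 8.87 and 9.82 in adjacent tissues, against 4.99, 4.95 and 1.57 in normal bladders. It did not overlap with normal bladder either and passed in tumors (at least 9.16-fold, adjusted p = 0.0255 from limma) and in adjacent tissue (at least 7.79-fold, adjusted p = 0.0167). The call in tumors did not survive the removal of tumor 2, of tumor 3 or of a normal array (highest adjusted p 0.0903), nor the replicate block (0.0555). Its adjacent call was lost without adjacent sample 2 (0.0553).

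Il1b, the inflammatory cytokine of activated myeloid cells, was measured by 1 probe set. Its log2 signals were 10.05, 11.09 and 12.14 in tumors and 11.02, 10.73 and 13.16 in adjacent tissues, against 7.76, 6.80 and 6.81 in normal bladders. Adjacent sample 3 was the highest array and tumor 1 the lowest of the MNU rats, and neither group overlapped with normal bladder. Il1b was 15.6-fold higher in tumors (log2 fold change 3.97, SE 0.52, adjusted p = 0.00556) and 22.8-fold higher in adjacent tissue (4.51, SE 0.61, adjusted p = 0.00282) by limma. Both calls held without each array in turn, and both missed the threshold by the methods' t-test after adjustment (0.0585 in tumors and 0.0580 in adjacent tissue).

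Il33, an alarmin of the cell nucleus found in epithelial, stromal and endothelial cells, moved the other way. The brighter probe set gave 11.43, 8.48 and 9.10 in tumors and 10.42, 9.68 and 9.23 in adjacent tissues, against 13.13, 12.90 and 13.17 in normal bladders. The normal arrays lay within 0.27 log2 units of each other, above every other array, while the tumors spread over 2.95 units with tumor 1 nearest to normal. Il33 fell to 9.50% of its normal level in tumors (log2 fold change -3.40, SE 0.68, adjusted p = 0.0176) and to 10.2% in adjacent tissue (-3.29, SE 0.28, adjusted p = 6.5e-04). The call in tumors did not survive the removal of tumor 3 or of a normal array (highest adjusted p 0.0733), and that in adjacent tissue held without each array.

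A dimmer Il33 probe set gave 10.18, 8.06 and 8.38 in tumors and 9.27, 8.94 and 8.77 in adjacent tissues, against 11.66, 11.71 and 12.10 in normal bladders. Over the 6 tumor and adjacent arrays the order was the same as for the brighter probe set, with tumor 1 nearest to normal. The log2 fold change was -2.95 in tumors (SE 0.51, adjusted p = 0.0117) and -2.83 in adjacent tissue (SE 0.18, adjusted p = 3.4e-04). In tumors the call ended when a normal array was removed (highest adjusted p 0.0579).

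The sequences around the start sites of the ligands with the largest changes are shown because Il1a and Il1b, which are neighbours on chromosome 3, rose together while Il33 fell. RefSeq promoter windows (GRCr8, 250 bases before to 50 after an annotated start, minus strand for Il1a and Il1b and plus strand for Il33) were matched by symbol for 9 of the 10 genes. They span chr3:136989968-136990267 for Il1a, chr3:137036532-137036831 for Il1b and chr1:237134696-237134995 for 1 of the Il33 starts.
Il1a: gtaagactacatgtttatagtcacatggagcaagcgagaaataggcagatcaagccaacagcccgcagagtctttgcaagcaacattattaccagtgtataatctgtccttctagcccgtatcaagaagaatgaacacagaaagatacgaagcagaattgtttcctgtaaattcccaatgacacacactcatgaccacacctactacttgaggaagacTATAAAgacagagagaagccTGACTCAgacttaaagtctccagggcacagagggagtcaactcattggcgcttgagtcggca
Il1b: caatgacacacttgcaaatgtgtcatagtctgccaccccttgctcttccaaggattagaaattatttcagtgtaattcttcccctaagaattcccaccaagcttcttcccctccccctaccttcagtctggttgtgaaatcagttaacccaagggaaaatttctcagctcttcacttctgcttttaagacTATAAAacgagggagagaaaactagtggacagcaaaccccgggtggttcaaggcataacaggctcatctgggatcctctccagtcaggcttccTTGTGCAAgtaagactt
Il33: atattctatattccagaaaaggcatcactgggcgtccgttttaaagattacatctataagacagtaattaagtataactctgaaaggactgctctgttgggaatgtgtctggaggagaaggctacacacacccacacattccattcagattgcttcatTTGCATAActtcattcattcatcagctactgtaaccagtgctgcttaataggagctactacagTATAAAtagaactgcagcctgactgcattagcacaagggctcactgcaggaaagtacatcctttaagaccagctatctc
Capitals mark matches to 3 of 4 searched motifs. All 3 windows held TATAAA, read on the gene's strand, with its first base at -32 in Il1a, -60 in Il1b and -29 in Il33, counted from the start site. This motif was in 8.8% of 33469 RefSeq promoter windows of the same length. The Il1a window also held an AP-1 match (TGANTCA, both strands, 7.33% of all windows) at -12, and the Il1b and Il33 windows a C/EBP match (TTGCNNAA, both strands, 10.6% of all windows) at 34 and -92. The consensus of NF-kappaB (both strands, 7.51% of all windows) matched none of these windows, nor that of the other Il33 start, which held none of the 4 motifs. It matched once in the Il1r1 window and once in the stretch that both Il1rap windows share. The matches did not overlap, and they are letters in a window and not sites shown to be used.

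Il18, a cytokine that urothelium and macrophages hold as a precursor, gave 8.79, 7.42 and 8.43 in tumors and 8.17, 8.27 and 8.46 in adjacent tissues, against 7.61, 7.58 and 8.04 in normal bladders. Tumor 2 lay below all normal arrays, whereas the adjacent arrays lay above them. The log2 difference was 0.47 in tumors (SE 0.36, adjusted p = 0.413) and 0.56 in adjacent tissue (SE 0.21, adjusted p = 0.107), and neither passed. With arrays centred on their medians the adjacent difference passed (adjusted p = 0.0421).

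The antagonist Il1rn varied widely within groups. Its signals were 6.46, 8.19 and 7.08 in tumors and 3.10, 7.61 and 8.59 in adjacent tissues, against 5.93, 3.10 and 5.38 in normal bladders. All tumors lay above all normal bladders, and adjacent sample 1 shared the lowest signal with normal sample 2. The log2 difference was 2.44 in tumors (SE 0.80, adjusted p = 0.0770 from limma) and 1.63 in adjacent tissue (SE 1.40, adjusted p = 0.480). The tumor difference passed without tumor 1 (adjusted p = 0.0383) and the adjacent one without adjacent sample 1 (0.0323).

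Casp1, the protease of the inflammasome, gave 8.82, 9.16 and 9.91 in tumors and 9.31, 9.97 and 9.38 in adjacent tissues, against 8.51, 8.79 and 8.44 in normal bladders. Neither group overlapped with normal bladder, though tumor 1 lay close to normal sample 2. Casp1 rose in adjacent tissue by 0.97 log2 units (1.96-fold, SE 0.21, adjusted p = 0.0182), a call that ended when either normal sample 1 or normal sample 3 was removed (highest adjusted p 0.0814) or when the trend was left out (0.0626). The difference of 0.71 in tumors did not pass (SE 0.28, adjusted p = 0.124) except without tumor 1 (0.0193).

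Among the receptors, Il1r2, the decoy without a signalling domain that neutrophils and other myeloid cells carry, changed most. Its probe set gave 10.21, 9.49 and 9.87 in tumors and 10.42, 9.24 and 11.06 in adjacent tissues, against 5.91, 5.75 and 6.35 in normal bladders. The lowest array of the MNU rats lay 2.89 log2 units above the highest normal array. Il1r2 was 14.4-fold higher in tumors (log2 fold change 3.85, SE 0.26, adjusted p = 0.00119) and 18.9-fold higher in adjacent tissue (4.24, SE 0.43, adjusted p = 0.00115). Both calls held without each array in turn.

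Il1r1, the signalling receptor, lies 1 gene apart from Il1r2 on chromosome 9 in RefSeq. Its brightest probe set gave 10.46, 8.71 and 9.58 in tumors and 10.48, 10.23 and 10.03 in adjacent tissues, against 10.37, 10.32 and 10.36 in normal bladders. Tumors 2 and 3 lay below every normal array and tumor 1 above them, and the adjacent arrays lay on either side. The log2 difference was -0.76 in tumors (SE 0.39, 95% interval -1.68 to 0.16, adjusted p = 0.228) and -0.10 in adjacent tissue (interval -0.45 to 0.24, adjusted p = 0.684). Without tumor 1 the tumor difference was -1.20 and passed (adjusted p = 0.00689). Of its other probe sets, 1 was dim on all 9 arrays and the other did not exceed 5.70 on any, and neither passed.

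Il1rap, the accessory chain that Il1r1 and Il1rl1 share, gave 7.29, 7.15 and 7.44 in tumors and 7.33, 7.24 and 8.70 in adjacent tissues, against 7.13, 7.40 and 7.02 in normal bladders. Adjacent sample 3 stood above the rest, and the other arrays overlapped. The difference was 0.11 in tumors (95% interval -0.39 to 0.62, adjusted p = 0.762) and 0.58 in adjacent tissue (-0.34 to 1.50, adjusted p = 0.370). A dimmer probe set ranged from 4.88 to 6.47 over the 9 arrays and did not pass either.

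Il1rl1, the Il33 receptor of mast cells and lymphocytes, was near the dim limit. It gave 7.08, 5.08 and 5.15 in tumors and 6.07, 5.76 and 6.28 in adjacent tissues, against 4.99, 4.81 and 5.12 in normal bladders. All normal arrays were dim, all adjacent arrays were above the limit, and tumor 1 was the highest array. The adjacent difference of 1.06 (SE 0.37, adjusted p = 0.0870 from limma) passed with quantile normalization (0.0413), with arrays centred on their medians (0.0490), without the mean-variance trend (0.0358) and by the methods' t-test after adjustment (0.0494). It passed in 0 of the 6 limma fits that left out 1 array (adjusted p 0.0996 to 0.219). In tumors the difference was 0.79 (SE 0.60, adjusted p = 0.408). The second probe set was at 2.76 to 5.87 and pointed the other way, at -1.56 in tumors and -0.66 in adjacent tissue. All its tumor arrays lay below all its normal arrays, each of them dim, and it passed in neither comparison.

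**Figure D2:**
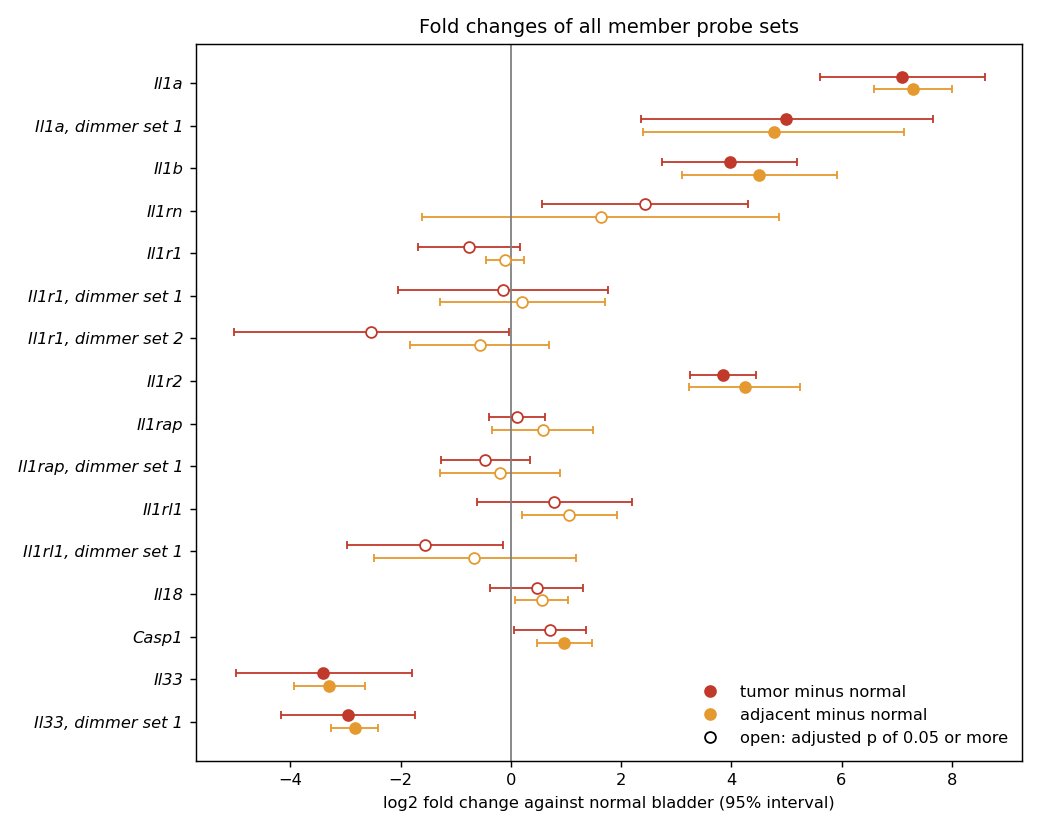
Log2 fold change (horizontal axis) of all 16 probe sets of the 10 genes, tumor minus normal in red and adjacent minus normal in orange, with 95% intervals from limma. Filled points passed an adjusted p of 0.05. Where a gene has several probe sets, the brightest is listed first. Il1a has the largest rise and Il33 the largest fall among filled points.

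Tumors and the adjacent tissues of the same rats were compared to ask which of these differences were particular to the tumor. None of the 10 genes passed by limma in either direction (0% and 0% of all genes), none had an unadjusted p under 0.05 (845 of 31042 probe sets did), and none passed the methods' t-test at its own thresholds (395 probe sets did). The groups overlapped for all 10 genes (7.06% of all genes did not overlap). The difference was -0.20 for Il1a (95% interval -1.64 to 1.24), -0.54 for Il1b (-2.23 to 1.14), -0.39 for Il1r2 (-1.41 to 0.64) and -0.11 for Il33 (-1.77 to 1.56). These intervals come from a fit that did not pair the samples by rat. They leave room for differences of more than 2-fold in either direction for Il1a, Il1b and Il33, so that they do not show equal levels.

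Within the rats, numbered 1 to 3, the tumor minus adjacent difference of Il1a was -1.42, 0.61 and 0.23, and that of Il33 was 1.01, -1.20 and -0.13. Il1a was thus lower and Il33 higher in the tumor of rat 1 than in its adjacent tissue, and the reverse held in the pair numbered 2. The pairing rests on the numbers, and tumor 2 deviated from its group mean more like adjacent sample 3 (r = 0.272 over probe sets) than like adjacent sample 2 (0.128). By the brightest probe set, Il1r1 was lower in the tumor in each of the 3 rats (-0.02, -1.52 and -0.45), as was Il1rap (-0.04, -0.09 and -1.26). Each dimmer probe set of both genes was higher in the tumor in 1 of the 3 rats.

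By the brightest probe set of each gene, group means were ordered adjacent, tumor, normal for Il1a, Il1b, Il1r2, Il1rap, Il1rl1, Il18 and Casp1. The order was tumor, adjacent, normal for Il1rn. It was normal, adjacent, tumor for Il33 and Il1r1. Tumor and adjacent tissue, neighbours in each of these orders, did not differ beyond their spread. Some dimmer probe sets gave other orders. That of Il1a put tumors (8.84) above adjacent tissue (8.61). Those of Il1rap and Il1rl1 put normal bladder highest (5.91 and 5.09) and tumors lowest (5.45 and 3.53). A dimmer Il1r1 probe set put adjacent tissue highest (5.11).

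Markers of some cell types moved with these genes. Among all genes, 13.6% rose and 9.95% fell in tumors, and 13.3% rose and 11.5% fell in adjacent tissue. Of 9 mast cell markers measured (of 10 listed), 1 rose in tumors and 0 in adjacent tissue. Of 5 T cell markers (of 7 listed), 1 rose in each comparison, and of 2 B cell markers (of 4 listed) 0 did. In these 3 lists 0 markers fell. Of 12 neutrophil markers 7 were measured and 3 rose in both comparisons (S100a8, S100a9 and the cytokine receptor Csf3r). Their summed linear signal was 1550%, 6160% and 8990% of the normal mean in tumors and 2670%, 2710% and 21900% in adjacent tissues, against 89.5% to 112% in normal bladders. In normal bladders 5 of the 7 markers were dim on every array, so the size of these percentages is uncertain. Adjacent sample 3, tumor 3 and tumor 2 were the 3 highest arrays for this sum and for Il1b, and tumor 1 the lowest of the MNU rats for both. S100a8 and S100a9, which make up most of the sum, are also made by squamous epithelium. Csf3r gave 7.69, 8.17 and 7.86 in tumors and 8.68, 7.32 and 9.73 in adjacent tissues, against 4.58 to 5.53 in normal bladders. Of the granule proteins, Camp was above the dim limit on adjacent sample 3 alone, and Mmp8 there (7.91) and on tumor 3 (5.68). The chemokine receptor Cxcr1 was dim on all arrays of the MNU rats. Il1r2 was also highest in adjacent sample 3 (11.06), but otherwise had another order than the neutrophil sum. Tumor 1, lowest of the MNU rats for that sum, was at 10.21 for Il1r2, above tumors 2 and 3 (9.49 and 9.87). The part of neutrophils in the rise of Il1b and Il1r2 was not tested.

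Basal and squamous epithelial markers rose as well, 5 of 8 measured (of 11 listed) in tumors and 7 of 8 in adjacent tissue. Their summed signal was 246% to 322% of the normal mean in tumors and 250% to 481% in adjacent tissue, against 95.5% to 106% in normal bladder. Of 9 macrophage markers measured (of 11 listed), Cd68 and Lyz2 rose in both comparisons, and the list's median log2 fold change was -0.06 in tumors and 0 in adjacent tissue. The sum of their linear signals, in which Lyz2 was the brightest, was 112% to 164% of the normal mean in tumors and 137% to 163% in adjacent tissue, against 92.6% to 111% in normal bladder. The scavenger receptor Cd163 gave 10.47, 6.62 and 7.79 in tumors and 10.27, 8.50 and 8.35 in adjacent tissues, against 9.31 to 9.39 in normal bladders, and did not pass. The part of these cells in the rise of Il1a was not tested.

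Smooth muscle and fibroblast markers moved with Il33. All 8 smooth muscle and all 6 fibroblast markers lay below every normal array in both tissues. The groups did not overlap for 45.8% of all genes in tumors and for 46.7% in adjacent tissue. Of 8 smooth muscle markers, all measured, 2 passed the threshold as lower in tumors and 8 in adjacent tissue. Their sum was 75.6%, 2.58% and 3.07% of the normal mean in tumors and 37.2%, 11.4% and 4.86% in adjacent tissues, against 98.4% to 103% in normal bladders. Of 6 fibroblast markers, 0 passed it as lower in tumors and 3 in adjacent tissue. Their sum stood at 77.4%, 8.21% and 19.1% of the normal mean in tumors and at 64.5%, 54.1% and 23.0% of it in adjacent tissues, against 97.9% to 101% in normal bladders. Over the 6 arrays of the MNU rats, Il33 had the same order as either sum, with tumor 1 the highest and tumor 2 the lowest. The smooth muscle sum rests on its brightest markers, and the single markers differed on tumor 1, where this sum was 75.6%. Actg2 was at 14.38 there, against 14.57 to 14.63 in normal bladders, and Smtn at 9.86, against 11.33 to 11.71. Il33 was at 11.43 on tumor 1, below every normal array. Of 5 umbrella cell markers of the urothelium (of 6 listed), 2 fell in tumors and 1 in adjacent tissue, among them the keratin Krt20, at 7.08% of its normal level in tumors (adjusted p = 0.0208) and 30.8% in adjacent tissue (adjusted p = 0.00528). The sum of their linear signals, in which Upk1b and Upk3a were the brightest, was 63.4% to 90.9% in tumors and 49.8% to 99.3% in adjacent tissue, against 97.2% to 104% in normal bladder. Of 4 endothelial markers measured (of 5 listed), 1 rose in tumors and 2 in adjacent tissue, Vwf in both (adjusted p = 0.00737 and 0.00973), and 0 fell. Their sum was 100% to 143% in tumors and 99.3% to 135% in adjacent tissue, against 94.3% to 105% in normal bladder. The part of these cells in the fall of Il33 was not tested.

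**Figure D3:**
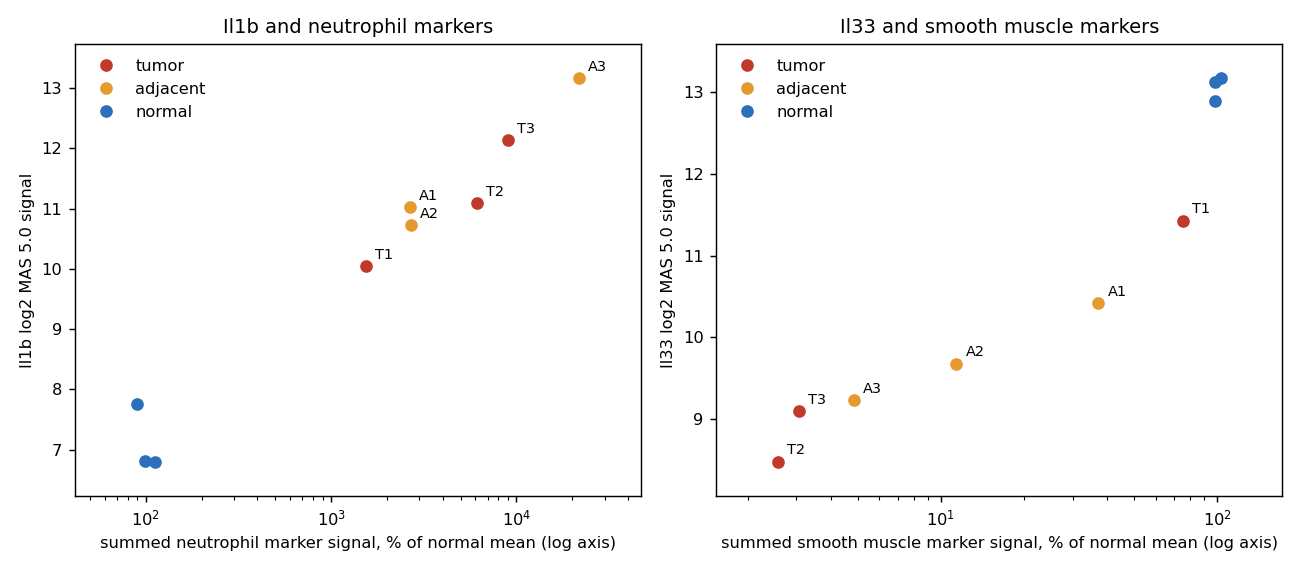
Log2 signal of Il1b against the summed signal of 7 neutrophil markers (left) and of Il33 against that of 8 smooth muscle markers (right), both sums in % of the normal mean on a log axis, 1 point per array. T and A with a number name tumor and adjacent samples. Il1b is highest in adjacent sample 3, which also has the highest neutrophil sum, and Il33 has the same order as the smooth muscle sum over the 6 tumor and adjacent arrays.

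The genes downstream of the receptor were described from lists written from general knowledge, with earlier results of these data known. The counts below are therefore a description and not an independent test. Of 21 signalling genes 20 were measured. In tumors 4 rose and 1 fell, where 13.6% of all genes rose and 9.95% fell. In adjacent tissue 5 rose and 1 fell, where 13.3% of all genes rose and 11.5% fell. The median log2 fold change of the 20 genes was 0.17 and 0.34. Myd88, the adaptor that couples interleukin-1 receptors to their kinases, gave 10.19, 10.38 and 10.18 in tumors and 10.54, 10.30 and 10.86 in adjacent tissues, against 8.73, 8.75 and 8.68 in normal bladders. It rose by 1.53 log2 units in tumors (adjusted p = 0.00170) and by 1.85 in adjacent tissue (adjusted p = 8.3e-04), and both calls held without each array. The kinase Irak2 rose by 0.90 in tumors (adjusted p = 0.0328, lost without any 1 array except tumor 1, up to 0.111). Nfkb1, a subunit of NF-kappaB, rose by 1.24 in adjacent tissue (adjusted p = 0.0316, lost without any 1 normal array, up to 0.111). Peli2, a ubiquitin ligase that modifies the Irak kinases, fell by 2.69 in tumors (adjusted p = 0.0225, lost without any 1 array except tumor 1, up to 0.0872) and by 2.18 in adjacent tissue (adjusted p = 0.00423). In tumors 8 signalling genes changed without tumor 1, and 3, 2, 1, 1 and 2 without tumor 2, tumor 3 and normal samples 1, 2 and 3. In adjacent tissue 2, 2 and 3 changed without normal samples 1, 2 and 3. The choice of test moved these counts as well. In tumors 1 signalling gene changed without the trend, 3 with the replicate block and 2 by the methods' t-test, both at its own thresholds and after adjustment. In adjacent tissue 2 changed without the trend, and 3 and 2 by the methods' t-test at its own thresholds and after adjustment.

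Of 12 inflammasome and processing genes 8 were measured. In tumors 1 rose and 2 fell, where 13.6% of all genes rose and 9.95% fell. In adjacent tissue 1 rose and 1 fell, where 13.3% of all genes rose and 11.5% fell. The median log2 fold change of the 8 genes was -0.12 and 0.04. Casp4, the inflammatory caspase next to Casp1 on chromosome 8, rose by 1.66 in adjacent tissue (SE 0.21, adjusted p = 0.00238) and was at 1.23 in tumors (SE 0.37, adjusted p = 0.0609). Pycard, the adaptor of the inflammasome, rose by 0.73 in tumors (adjusted p = 0.0451). Nek7, which is needed to assemble the NLRP3 inflammasome, fell by 0.76 in tumors (adjusted p = 0.0129) and by 0.84 in adjacent tissue (adjusted p = 0.0128), and Txnip by 0.44 in tumors (adjusted p = 0.0338). The calls of Pycard and Txnip ended when any array but tumor 1 was removed (highest adjusted p 0.151 and 0.123), and those of Nek7 when a normal array was removed (0.0635 in tumors and 0.0605 in adjacent tissue). Without normal sample 1, 2 or 3 no inflammasome gene changed in tumors. None changed there without the trend or by the methods' t-test at its own thresholds either, and 1 did after adjustment of that test. In adjacent tissue 1 changed under each of these settings, and 4 with arrays centred on their medians.

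Other ligands and binding proteins of the family (3 of 6 measured) and other receptors (2 of 6) held no gene that passed. Il36b, an epithelial cytokine of the family, gave 3.82, 4.47 and 4.32 in tumors and 5.33, 4.88 and 8.61 in adjacent tissues, against 3.98, 3.36 and 4.62 in normal bladders. Adjacent sample 3 alone was above the dim limit, as it was also the highest array for Il1b and Il1r2.

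Many, though not all, of the genes known to be induced by interleukin-1 rose in both tissues. Of 20 such genes, all measured, 11 rose and 0 fell in tumors, and 14 rose and 0 fell in adjacent tissue, with median log2 fold changes of 2.07 and 2.96, against 0.05 and 0.01 for all genes. In normal bladders 6 of the 20 genes were dim on every array, so the size of these medians is uncertain. Among all genes, 13.6% rose and 9.95% fell in tumors, and 13.3% rose and 11.5% fell in adjacent tissue. Ccl20, a chemokine that attracts lymphocytes and dendritic cells, gave 8.28, 9.13 and 11.47 in tumors and 9.94, 10.23 and 11.74 in adjacent tissues, against 2.36, 2.15 and 2.06 in normal bladders. Every normal array was dim, and Ccl20 was at least 15.8-fold higher in tumors (adjusted p = 0.00305) and at least 31.9-fold higher in adjacent tissue (adjusted p = 2.7e-04). Cxcl3, a chemokine for neutrophils, gave 8.16, 11.48 and 12.30 in tumors and 8.01, 10.63 and 12.76 in adjacent tissues, against 5.56, 4.96 and 3.60 in normal bladders. It was at least 32.0-fold higher in tumors (adjusted p = 0.0122, lost without normal sample 2 or 3, up to 0.0577) and at least 28.3-fold higher in adjacent tissue (adjusted p = 0.00981).

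Not all of these genes moved. The log2 difference in tumors and in adjacent tissue was -1.69 and -0.37 for Vcam1, and -0.23 and -0.94 for Nos2. It was -0.41 and 0.58 for Tnfaip6, and -1.22 and -1.06 for Lif, which was dim on all arrays. None of these differences passed. Ptgs2 (cyclooxygenase 2), named after its values were seen, gave 8.97, 11.23 and 12.57 in tumors and 9.92, 10.69 and 12.55 in adjacent tissues, against 10.79, 10.36 and 10.97 in normal bladders. It spread over 3.60 log2 units among the tumors and overlapped with normal bladder in both tissues (adjusted p = 0.883 and 0.738). The number of target genes called in tumors was 16 without tumor 1, with 15 higher and 1 lower, and 7, 5 and 5 without normal samples 1, 2 and 3. By the methods' t-test after adjustment, 2 target genes changed in tumors and 5 in adjacent tissue. Several of these genes answer to other cytokines too, and the part of interleukin-1 in their rise was not tested.

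**Figure D4:**
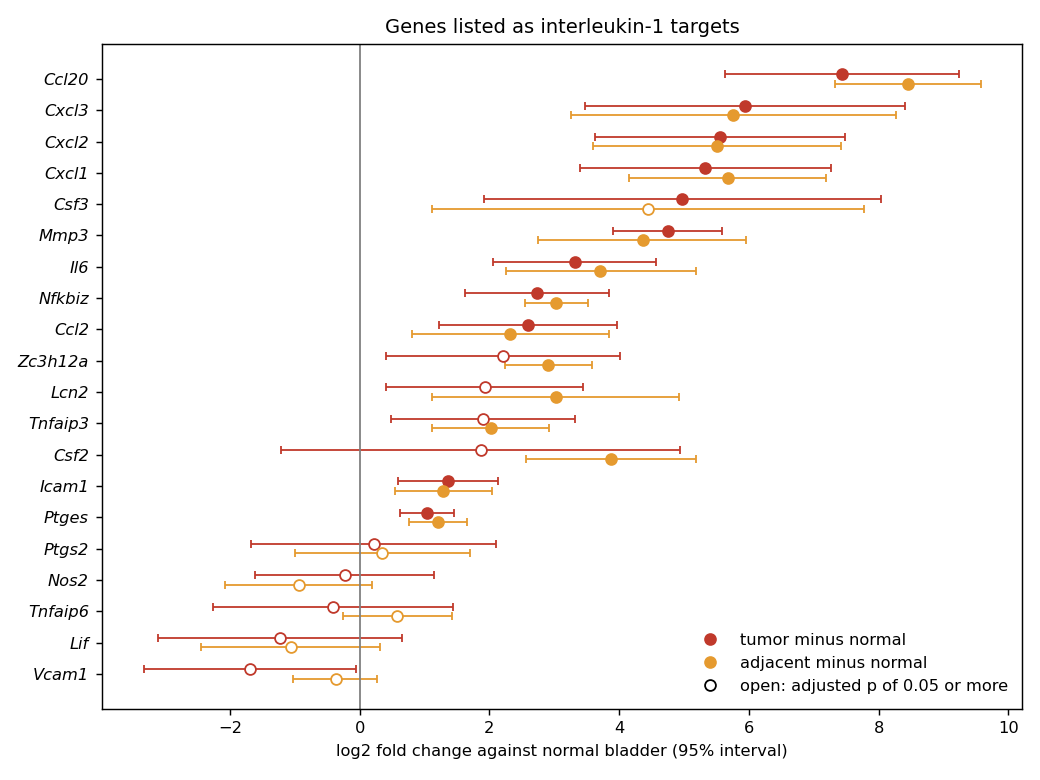
Log2 fold change (horizontal axis) of 20 genes listed as interleukin-1 targets, tumor minus normal in red and adjacent minus normal in orange, with 95% intervals from limma; filled points passed an adjusted p of 0.05. Filled points all lie to the right of 0, with Ccl20 and Cxcl3 at the top.

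As a description over the 9 arrays, the genes whose log2 signals were most like those of a ligand were sought among 11075 genes with a mean above the dim limit. They were Crb3, Ccna2 and Ly6g6e for Il1a (Pearson's r = 0.996, 0.992 and 0.992), Phgdh, Cct7 and Tomm70 for Il1b (0.997, 0.996 and 0.996), and Tacc1, Cap2 and Ppp1r12c for Il33 (0.995, 0.995 and 0.994). The normal arrays lie apart from the other 6 in each case, and all points share their library with both genes. Crb3 is an epithelial polarity protein and Ccna2 a cyclin of dividing cells. Cap2, which regulates actin, gave 8.40, 4.92 and 5.28 in tumors and 7.35, 6.34 and 5.19 in adjacent tissues, against 10.25, 10.35 and 10.61 in normal bladders, with tumor 1 again the highest and tumor 2 the lowest array of the MNU rats.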

How the data were processed

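RNA of 9 rat bladder samples (3 tumors, 3 adjacent tissues, 3 normal bladders) was labelled with the 3' IVT Express kit and hybridized to Affymetrix arrays. The authors normalized the scans with the MAS 5.0 algorithm in GeneSpring and deposited log2 signals. The trimmed mean of the linear signals, with 2% removed at each end, was 500.1 or 500.2 on every array. The probe-level files were not used here. Of 31099 probe sets, 57 controls were left out. The platform annotation names 1 gene for 20826 probe sets, several for 436 and none for 9780, and a gene with several probe sets was represented by the one with the highest mean.

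Tumor against normal, adjacent against normal and tumor against adjacent were each fitted separately with limma 3.58.1 in R 4.3.3 (lmFit, then eBayes with trend). Benjamini-Hochberg adjustment covered 31042 probe sets, and an adjusted p under 0.05 was called. Log2 fold changes are the first-named group minus the second. For a group with every array under a signal of 50, the fold is given as a minimum, dividing the other group's mean by 50. The t-test named in the methods was applied at p of at most 0.05 and a fold of at least 2, and again after adjustment. The scripts were tested on simulated data.

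The design pairs tumor and adjacent samples by rat. Deviations from the group means of same-numbered tumor and adjacent samples correlated at 0.523, 0.128 and 0.378, so the numbers were taken as pairs there, although tumor 2 correlated more with adjacent sample 3 (0.272). Alternatives were quantile normalization, centring on medians, testing above the 40th percentile of mean signal, adding 50 before log2, eBayes without trend, 1 fit of all 9 arrays, a replicate block, the removal of each array, and averaged probe sets per gene. For the pathway lists these were chosen after seeing the data.

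Members, gene lists, the limit of 50 and the tests were chosen with earlier results of these data known. Named genes are the 10 members, the 2 highest and 2 lowest changed genes of each pathway list, the 3 genes most like Il1a, Il1b and Il33, and markers of cell types. Cd163, Krt20, Vwf, Il36b, Ptgs2, Vcam1, Nos2, Tnfaip6, Lif and the tumor value of Casp4 were named after their values were seen. Listed genes without a probe set of their own were not analysed here. Promoter sequences are from RefSeq (GRCr8).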

Additional observations from a re-analysis of the deposited data

How the results depend on the processing

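In tumors against normal bladder, 4 of the 10 genes changed. The count was 7 without tumor 1 and 3 to 7 over the fits that left out 1 array, and 2 (Il1a and Il1r2) by the methods' t-test after Benjamini-Hochberg, where Il1b had an adjusted p of 0.0585 and Il33 of 0.110. It was 3 without the trend, where Il33 had an adjusted p of 0.0591, and 4 under each other alternative. In adjacent tissue against normal bladder, 5 changed, with 4 to 7 over all alternatives and 4 to 6 when 1 array was left out. In tumor against adjacent tissue the count was 0 under every alternative run. No called value of a member changed direction.

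Of the alternative fits of the 16 probe sets, 215 kept the side of the threshold in tumors against normal bladder, 19 lost a call and 5 gained one. In adjacent tissue 223 kept it, 9 lost and 7 gained one, and in tumor against adjacent tissue all 240 kept it. Over all probe sets, 5574 were called in tumors against normal bladder, and 9216 without tumor 1, 2803 without tumor 3, 1535, 1453 and 1676 without normal samples 1, 2 and 3, 2376 without the trend, 3705 with the replicate block and 1764 by the methods' t-test after adjustment. In adjacent tissue 5873 were called, and 2728, 2691 and 2804 without normal samples 1, 2 and 3, 3414 without the trend and 2394 by the adjusted t-test. With the replicate block, 4, 5 and 0 member genes were called in tumors against normal bladder, adjacent tissue against normal bladder and tumor against adjacent tissue, and among the 16 probe sets of the members it changed the call of the dimmer Il1a probe set alone. Of the pathway lists, the block called 3 of 20 signalling genes in tumors, against 5 without it, and 2 of 8 inflammasome genes, against 3. Same-numbered normal samples share only a number with the others (correlations of deviations -0.065 to 0.047). Signals under 50 vary most, which limits Il1rn, Il1rl1 and the dimmer probe sets.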
